A study of Mus musculus with 4 samples.

Results

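The probes described here were those clearly lower in *Ebf1*-/- fetal liver hematopoietic progenitor cells (FL HPCs) infected with a miR-195 retrovirus than in such cells that received the control retrovirus (EMPTY). A probe was taken when the higher of the 2 miR-195 arrays lay at least 0.5, on the log2 scale, below the lower of the 2 EMPTY arrays, when the scanner software marked it as well above background on all 4 arrays, and when the array design named a gene symbol. Of 39429 probes on the array, 22646 were well above background on all 4 arrays, and 19239 of these, for 14808 genes, also carried a symbol and could be chosen. The rule took 76 probes of 71 genes, 0.395% of the probes that could be chosen. With the groups exchanged, it took 143 probes of 140 genes, or 0.743%. The probes were thus selected on the difference between the arrays in the deposited values, and their differences are given as a description, without a test.

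All 4 samples were Lin- cells of fetal liver that lacked *Ebf1*, an early B lineage transcription factor, so the deletion was shared by control and miR-195 cells. The EMPTY virus was MDH1-PGK-GFP without an insert, and the miR-195 virus carried the miRNA in the same vector. The added miRNA was thus expressed from a retrovirus, and any miRNA from the cells' own gene would come on top of it. Cells were cultured on OP9 stroma cells with SCF, IL-7 and Flt-ligand at 10 ng/mL each, and 100 ng of RNA per sample was labelled with a single dye. There were 2 arrays for each virus on the same slide, EMPTY in the first positions and miR-195 in the last, so virus and position on the slide cannot be told apart. The labels do not say whether replicates came from separate cultures or animals, nor whether infected cells were sorted before RNA was extracted, so uninfected cells may be part of each sample. The labels place the cells around the pro-B stage, and of the B lineage markers, *Ebf1* lay between 1.73 and 1.94 (log2) on the arrays, a probe not known to lie in the deleted part. *Il7r*, *Blnk* and *Vpreb1* were also well above background on all 4 arrays, whereas the *Cd79a* probe was on 2.

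miR-195 belongs to the miR-15/16 family of small RNAs, which share a seed, the stretch of bases that pairs with target mRNAs, mostly in their 3′ untranslated regions. Pairing usually lowers the level or the translation of the target, while other transcripts may change downstream of such targets. In the fetal liver, Lin- progenitors give rise to lymphoid and myeloid cells, and without *Ebf1* they do not proceed along the B lineage. The sequences below show what was expressed and how closely its relatives resemble it, with bases 2 to 8 in capitals. They are taken from RefSeq with the build GRCm38.p6, where mmu-miR-195a-5p lies at chr11:70235062-70235082 on the plus strand.
mmu-miR-195a-5p: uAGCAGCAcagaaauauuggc
mmu-miR-195b: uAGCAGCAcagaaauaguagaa
mmu-miR-16-5p: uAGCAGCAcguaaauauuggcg
mmu-miR-15a-5p: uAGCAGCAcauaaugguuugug
mmu-miR-15b-5p: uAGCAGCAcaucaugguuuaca
mmu-miR-497a-5p: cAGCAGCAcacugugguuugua
mmu-miR-322-5p: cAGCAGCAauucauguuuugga

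The 7 sequences have the same seed and differ after it. Of the 13 bases that follow the seed in mmu-miR-195a-5p, mmu-miR-16-5p had the same base at 11 positions, mmu-miR-195b at 10, and mmu-miR-322-5p at 4. No probe on the array was named for miR-195, so the level of the expressed miRNA was not measured here.

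All values below are log2 signals with 0 at the array's 75th percentile, as the authors normalised them, and a difference is the miR-195 mean minus the EMPTY mean. The differences of the 76 probes ran from -2.50 to -0.56 with a median of -0.85, beside a median of -0.0013 over all 19239 probes. A difference of -1 or below was found for 24 probes. The lower EMPTY and the higher miR-195 array were at least 1 apart for 7 probes. The 2 EMPTY arrays differed by a median of 0.19 for these probes and the 2 miR-195 arrays by 0.17, beside 0.14 and 0.18 over all probes. For 8 probes the miR-195 arrays were farther apart from each other than the gap between the groups, and for 5 probes the EMPTY arrays were. EMPTY replicate 1 was the highest of the 4 arrays for 59 of 76 probes (77.6%), against 54.3% of all probes with both miR-195 arrays below both EMPTY arrays. The values fell in the order of the positions on the slide for 32 of 76 probes (42.1%), against 35.7% of that same set. Limma called 0 of 22646 probes lower with miR-195 at an adjusted p under 0.05 (0.0%), with 493 lower and 1383 higher at an unadjusted p under 0.05. The methods' t-test called 0 as well, with 356 lower and 665 higher unadjusted. Without miR-195 replicate 1, limma called 228 probes lower and 956 higher, and without EMPTY replicate 2 it called 3 lower.

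**Figure D1:**
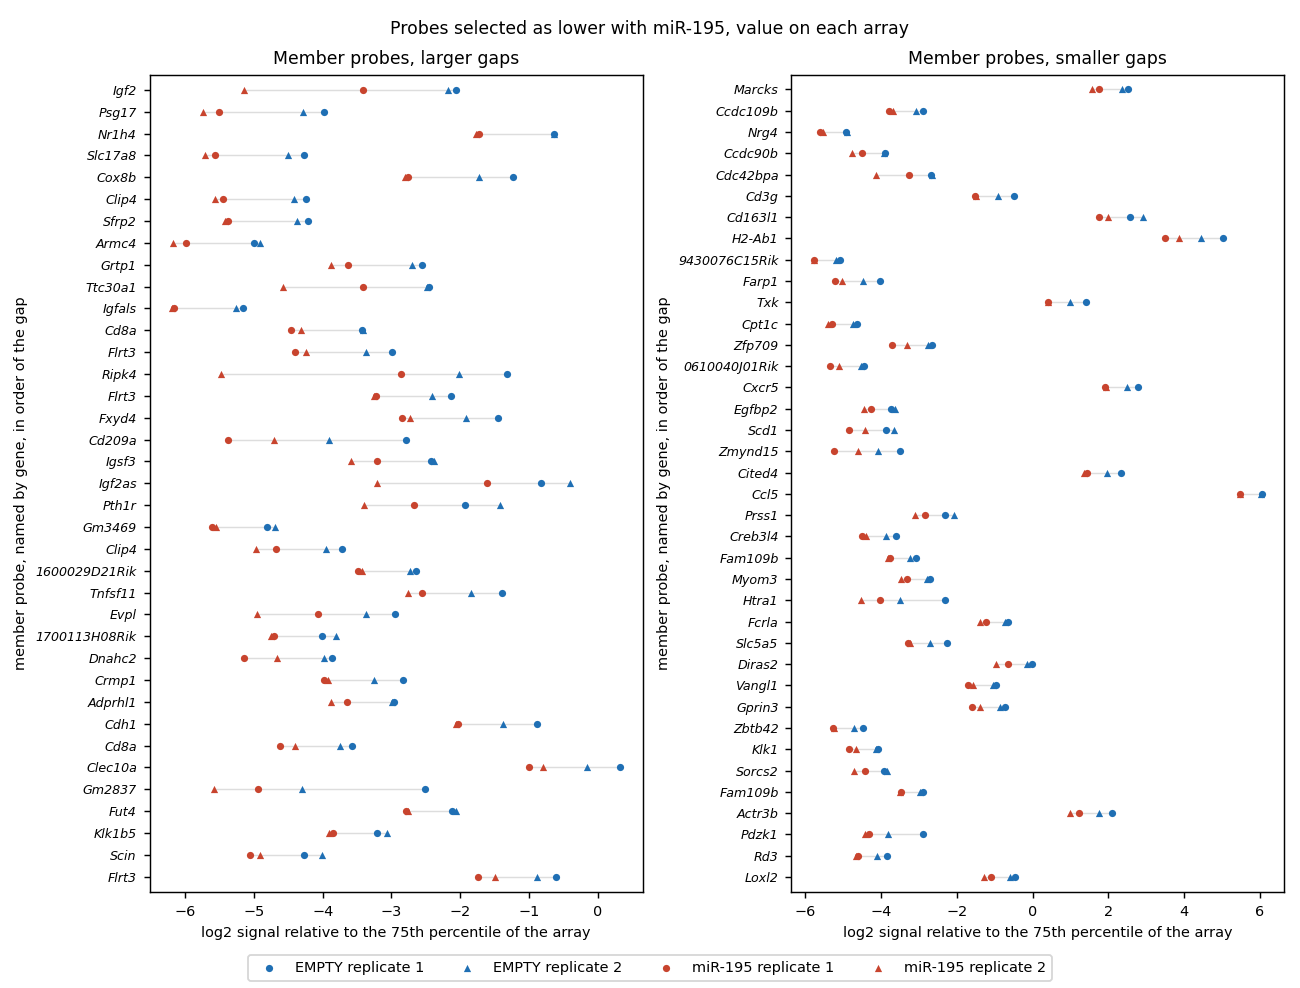
Each row is 1 of 75 of the selected probes, named by its gene, and each point its value on 1 array (log2 signal, with 0 at the array's 75th percentile). Blue marks the EMPTY and red the miR-195 arrays, circles replicate 1 and triangles replicate 2; the gap between the colours is at least 0.5 in every row because the rule asked for it, and *Ripk4*, *Igf2* and *Igf2as* have the widest spread between the miR-195 arrays.

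The selected probes were mostly dim. The median of their lowest processed signal was 53.7, against 616 over all probes that could be chosen and 90.5 for the probes higher by the same rule, on arrays with a median local background of 38 to 39. Of the 76 probes, 45 (59.2%) had a mean signal under the lower quartile of all probes that could be chosen, and 66 (86.8%) were under the median. The probes of *Ccl5*, *H2-Ab1*, *Cd163l1*, *Cxcr5*, *Marcks*, *Cited4*, *Actr3b* and *Txk*, by contrast, lay above the 75th percentile on both EMPTY arrays. With another background correction (normexp with an offset of 50), 15 of the 76 probes kept the gap of 0.5, and 67 still had a lower miR-195 mean. The sign turned for 9 probes, all dim, among them *Igfals* (0.23), *9430076C15Rik* (0.14), *Cpt1c* (0.12), *Armc4* (0.10), *Nrg4* (0.08), *0610040J01Rik* (0.05), *Zbtb42* (0.02) and *Klk1* (0.0021). An offset of 50 shrinks the differences of probes with signals near or below it. This correction also raised the median difference over all probes that could be chosen to 0.06. Limma on these values had 352 probes lower and 3105 higher at an unadjusted p under 0.05. A turned sign under this correction therefore says little about the single gene. The part of dim signal in the result was not tested. A gap of 0.5 was kept under that correction and 3 other normalisations by 12 probes, of *Igf2*, *Igf2as*, *Nr1h4*, *Cox8b*, *Flrt3*, *Ripk4*, *Fxyd4*, *Ttc30a1*, *Clec10a*, *Tnfsf11*, *Marcks* and *Cited4*.

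**Figure D2:**
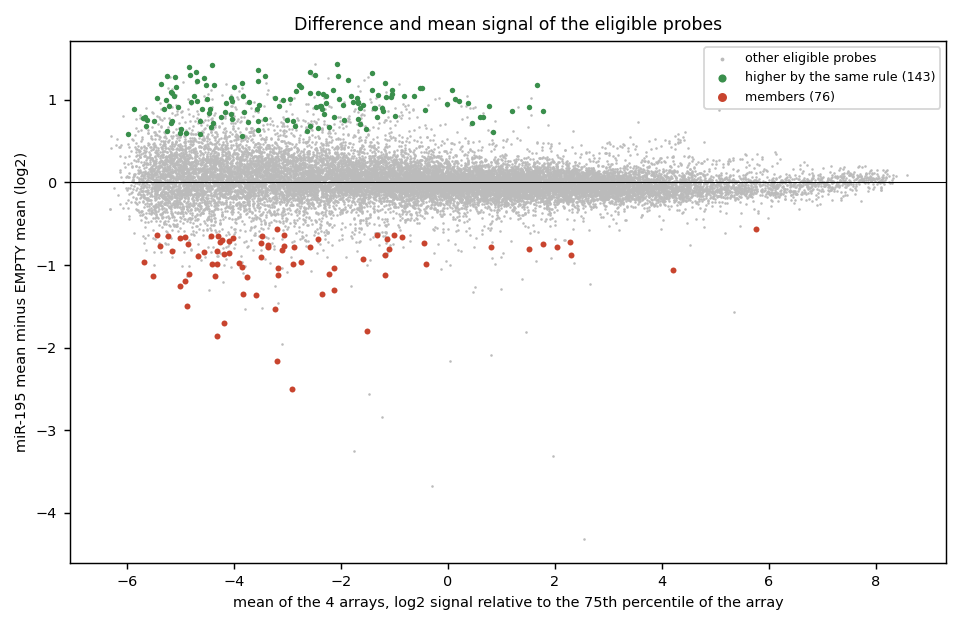
Each point is 1 of 19239 probes, with the mean of the 4 arrays (log2 signal, with 0 at the array's 75th percentile) on the x axis and the miR-195 mean minus the EMPTY mean (log2) on the y axis. The 76 selected probes are red and the 143 probes higher by the same rule green; most of both lie among the dim probes on the left, and grey probes far below 0 had miR-195 or EMPTY arrays too far apart for the rule.

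The probe with the widest gap belonged to *Igf2*, a fetal growth factor expressed from the paternal allele, at chr7:142650768-142666816. It lay at -2.06 and -2.18 on the EMPTY arrays and at -3.42 and -5.14 on the miR-195 arrays, a difference of -2.16. Both miR-195 arrays were low, but replicate 2 was far lower than replicate 1, and without it the difference was -1.30. *Igf2as*, a non-coding transcript that runs antisense across the same locus (chr7:142659680-142670356, *Igf2os* in RefSeq), lay at -0.83 and -0.40 with EMPTY and at -1.61 and -3.21 with miR-195. As for *Igf2*, miR-195 replicate 2 was far the lowest array, and without it the difference of -1.80 was -0.997. At the neighbouring genes the differences were -0.07 for the insulin gene *Ins2*, -0.05 for *Nctc1* and -0.09 for *Mrpl23*, and 0.40 and 0.32 for the probes of *Tnnt3*, a muscle troponin, in the other direction. *Igfals*, which encodes the acid-labile subunit that holds insulin-like growth factors in the circulation, lay at -5.17 and -5.26 with EMPTY and at -6.16 and -6.19 with miR-195. Its probe was among the dimmest, and its difference of -0.96 turned to 0.23 with the normexp background correction.

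*Nr1h4* encodes the farnesoid X receptor FXR, a nuclear receptor for bile acids, and lies at chr10:89454234-89533645. It lay at -0.63 on both EMPTY arrays and at -1.72 and -1.77 on the miR-195 arrays, a difference of -1.12 or 2.17-fold. Its replicates were close within each virus, with a SD of 0.003 for EMPTY and 0.034 for miR-195 (n = 2 each). The next coding gene along the chromosome, 40.4 kb away, is *Slc17a8*, a vesicular glutamate transporter (chr10:89574020-89621249), and it was selected too. Its probe lay at -4.27 and -4.51 with EMPTY and at -5.57 and -5.72 with miR-195, and a second *Slc17a8* probe differed by -0.44. Of the other genes around this pair, *Gas2l3* had probes at -0.29 and 0.14, *Scyl2* was at 0.16 and *Actr6* at 0.04 in their differences.

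Other neighbours were also found among the selected genes. *Grtp1*, a TBC domain protein, and *Adprhl1*, an ADP-ribosylhydrolase-like protein of heart muscle, lie 18 kb apart on chromosome 8 with no coding gene between them. *Grtp1* lay at -2.55 and -2.70 with EMPTY and at -3.63 and -3.87 with miR-195, and *Adprhl1* at -2.97 and -2.99 against -3.65 and -3.88. The genes on either side of them, *Lamp1* and *Dcun1d2*, differed by -0.14 and -0.02. *Klk1* and *Klk1b5*, tissue kallikrein proteases, lie 4.66 kb apart on chromosome 7, and a further selected probe belonged to their relative *Egfbp2*. Their differences were -0.64, -0.74 and -0.68, with *Klk1* at 0.0021 after the normexp correction. The probes of *Klk1b5* and *Egfbp2* shared a run of 19 bases, so their signals are uncertain as separate measurements. Other kallikrein probes went both ways, with *Klk1b4* and *Klk1b24* at -0.50 and -0.49 and *Klk1b3* and *Klk1b22* at 0.20 and 0.39. In all, 10 of the 66 selected genes with a position in RefSeq lay on chromosome 7 (15.2%), against 8.16% of the 12455 placed genes that could be chosen. These count *Igf2* and the overlapping *Igf2as*, and the neighbours *Klk1* and *Klk1b5*, separately. On chromosome 9 the share was 9.09% against 5.51%, and on chromosome 11 it was 7.58% against 8.59%.

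Of 27 genes in a list of T lineage markers, *Cd8a* and *Cd3g* were selected. *Cd8a*, the co-receptor of cytotoxic T cells, had 2 probes on the array and both were selected. The first lay at -3.42 and -3.41 on the EMPTY arrays and at -4.46 and -4.31 on the miR-195 arrays, and the second at -3.57 and -3.75 against -4.62 and -4.41. Both *Cd8a* probes were dim, and their differences of -0.97 and -0.85 shrank to -0.28 and -0.19 with the normexp correction. *Cd3g*, a chain of the T cell receptor complex, lay at -0.50 and -0.92 with EMPTY and at -1.52 and -1.50 with miR-195. The miR-195 arrays were close to each other in these probes, while the EMPTY arrays of *Cd3g* differed by 0.42. The other members of the complex did not move together, since *Cd3d* differed by -0.70 without overlap, *Cd3e* by -0.05 with overlap, and *Cd247* by -0.40 and 0.16 at its 2 probes. *Cd8b1*, the partner chain of *Cd8a*, lay at -4.73 and -5.26 against -6.11 and -6.12, but was well above background on only 3 arrays and was therefore not selected. The *Cd4* probes differed by -0.08 and 0.08, and *Lck*, the kinase bound to both co-receptors, by -0.03.

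*Ccl5*, a chemokine of T and NK cells, had a processed signal of 80868 on EMPTY replicate 1, far above background. It lay at 6.05 and 6.02 with EMPTY and at 5.46 and 5.48 with miR-195, with close replicates and one of the smallest differences of the selected probes, -0.56. *Txk*, a Tec family kinase of T cells, and *Cd163l1*, a scavenger receptor known from γδ T cells, were named for their role after their values were seen. *Txk* lay at 1.40 and 0.99 with EMPTY and at 0.40 and 0.41 with miR-195, and *Cd163l1* at 2.57 and 2.92 against 1.75 and 1.99. Across the NK and innate lymphoid list, 13 of 32 probes had both miR-195 arrays below both EMPTY arrays and 0 had both above, where 15.9% and 20.2% of all probes did. The median difference of that list was -0.27, and *Xcl1* (-0.57), *Gzma* (-0.69) and 1 probe of *Eomes* (-0.74), a chemokine, a granzyme and a transcription factor of NK cells, were among its lower probes. *Tyrobp*, an adaptor of NK receptors, differed by 0.02 and *Gzmb* by 0.04. Of the T lineage list, 9 of 33 probes were lower on both arrays and 3 higher, beside the same shares, with a median difference of -0.08. The summed level of the T list, the sum of the linear values of its probes, ran from 93.2 to 99.5 times the 75th percentile with EMPTY and from 90.1 to 95.4 with miR-195, and that of the NK list from 333 to 339 and from 287 to 302. The counts, medians and sums of both lists include selected probes, which the rule took for being low. These were 3 probes of the T list and 1 of the NK list, the bright *Ccl5*. Part of the lower values of both lists therefore follows from the selection. In bulk samples such as these, fewer cells of a type and less RNA per cell cannot be told apart.

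Among genes of antigen presentation, *H2-Ab1*, the beta chain of the MHC class II molecule I-A, lay at 5.02 and 4.44 on the EMPTY arrays and at 3.49 and 3.86 on the miR-195 arrays, a difference of -1.06 or 2.08-fold. Its spot on EMPTY replicate 2 carried an outlier flag of the scanner software, and without this array the difference was -1.35. The partner chain *H2-Aa* fell short of the rule, with 2.46 and 1.77 against 1.01 and 1.32, a difference of -0.95 and a gap of 0.45. The I-E beta chain *H2-Eb1* differed by -0.75, the invariant chain *Cd74* by -0.44, and the peptide loading subunits *H2-DMb1* and *H2-DMa* by -0.45 and -0.34, each with both miR-195 arrays below both EMPTY arrays. *Ciita*, the transactivator of these genes, differed by -0.40 with overlap of the groups. The whole list of dendritic cell and MHC class II genes went both ways. Of its 24 probes, 10 were lower on both arrays and 7 higher, beside 15.9% and 20.2% of all probes, with a median difference of -0.11. The rule with the groups exchanged took 2 genes of the list as higher, *Ccr9* (0.98) and *Runx2* (0.89). The summed level of this list ran from 410 to 425 times the 75th percentile with EMPTY and from 372 to 377 with miR-195. The counts and the sum include 2 selected probes, of *H2-Ab1* and *Cd209a*, so part of the lower values follows from the selection.

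*Cd209a*, a C-type lectin of dendritic cells related to DC-SIGN, lay at -2.78 and -3.91 with EMPTY and at -5.38 and -4.71 with miR-195. The groups did not overlap, but EMPTY replicate 1 stood well above replicate 2, and without it the difference of -1.70 was -1.13. *Clec10a*, a galactose-binding lectin of macrophages and dendritic cells chosen after its values were seen, lay at 0.33 and -0.15 with EMPTY and at -1.004 and -0.80 with miR-195. *Mgl2*, the related lectin that lies beside it on chromosome 11, differed by 0.16 in the other direction, and *Siglech*, a marker of plasmacytoid dendritic cells, by 0.14 and -0.10. *Batf3*, a factor of conventional dendritic cells, differed by -0.81 and was just short of the rule.

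**Figure D3:**
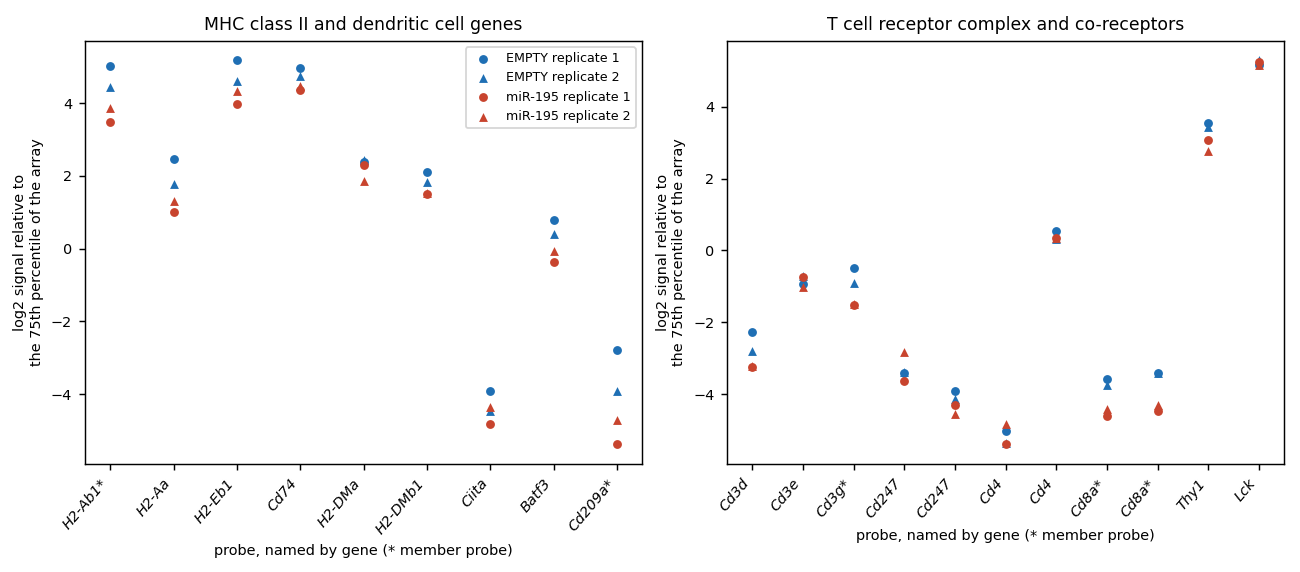
Each column is 1 probe, named by its gene with an asterisk for a selected probe, and each point its value on 1 array (log2 signal, with 0 at the array's 75th percentile; blue EMPTY, red miR-195, circles replicate 1, triangles replicate 2). Only some genes of each list are shown, without *Ccr9* and *Runx2*, which were higher with miR-195. On the left, both red points lie below both blue points for *H2-Ab1*, *H2-Aa*, *H2-Eb1* and *Cd74* but not for *Ciita*. On the right, *Cd3d*, *Cd3g* and *Cd8a* separate, while *Cd3e*, *Cd4* and *Lck* overlap.

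*Tnfsf11* encodes RANKL, a TNF family ligand made by lymphoid and stromal cells. It lay at -1.40 and -1.85 with EMPTY and at -2.55 and -2.76 with miR-195, a difference of -1.03. *Cxcr5*, the receptor that draws B cells and follicular T cells to CXCL13, lay at 2.79 and 2.50 against 1.90 and 1.95, a difference of -0.72. *Fcrla*, an Fc receptor-like protein of B cells named for this role after its values were seen, lay at -0.65 and -0.72 against -1.24 and -1.40. No gene of the B lineage list was selected, where 0.395% of all probes were. Of its 34 probes, 6 were lower on both arrays and 6 higher, shares near the 15.9% and 20.2% of all probes. The median difference of the list was 0.01. The rule with the groups exchanged took 1 probe of the list as higher, that of *Cd79b*. It lay at -1.25 and -0.96 with EMPTY and at -0.34 and 0.42 with miR-195. Of the cytokine, chemokine and receptor list, 15 of 47 probes were lower on both arrays and 3 higher, beside 15.9% and 20.2% of all probes. The lower probes include 2 that the rule selected, of *Tnfsf11* and *Cxcr5*. Others were those of *Ccl22* (-0.89), *Ltb* (-0.44), a lymphotoxin chain, and *Ccl17*. Like *Ccl22*, *Ccl17* is a chemokine of dendritic cells, and it lay at 0.69 and 0.39 against -0.86 and -0.06.

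Genes best known from epithelia formed another group, put together after the values were seen. *Flrt3*, a cell surface ligand in adhesion, had 3 probes and all were selected, with differences of -1.14, -0.96 and -0.88. The last of these probes lay at -0.61 and -0.88 with EMPTY and at -1.74 and -1.50 with miR-195. *Ripk4*, a kinase required in epidermal differentiation, had the largest difference of all, -2.50, from -1.32 and -2.02 with EMPTY to -2.87 and -5.48 with miR-195. It rested in large part on miR-195 replicate 2, without which it was -1.19, and without replicate 1 it was -3.81. *Cdh1*, which encodes E-cadherin of adherens junctions, lay at -0.88 and -1.37 against -2.03 and -2.06, and *Evpl*, the cornified envelope protein envoplakin, at -2.94 and -3.37 against -4.07 and -4.95. *Igsf3*, an immunoglobulin superfamily membrane protein, and *Vangl1*, a planar cell polarity protein, differed by -0.99 and -0.63. The median difference of the 8 probes was -0.98.

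Among secreted proteins, *Psg17*, a pregnancy-specific glycoprotein, lay at -3.98 and -4.28 with EMPTY and at -5.51 and -5.74 with miR-195, a difference of -1.49 at dim signal. *Sfrp2*, a secreted antagonist of Wnt ligands, lay at -4.22 and -4.37 against -5.39 and -5.43. Both were dim, and low on both miR-195 arrays with little spread. With the normexp correction the difference of *Psg17* shrank to -0.26 and that of *Sfrp2* to -0.17. *Htra1*, a secreted serine protease, differed by -1.37 with a wide spread of the EMPTY arrays, at -2.32 and -3.49 against -4.02 and -4.52, and without EMPTY replicate 1 by -0.78. *Prss1*, a trypsin, differed by -0.78, and *Loxl2*, which cross-links collagen, by -0.66. Of the list of stroma and extracellular matrix genes, which holds markers of the OP9 cells in the culture, 0 probes were selected, 1 of 26 was lower on both arrays and 5 were higher (15.9% and 20.2% of all probes), and its summed level was 15.6 to 16.4 with EMPTY and 14.6 to 25.8 with miR-195.

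Transporters and ion transport regulators came with *Slc17a8*. *Fxyd4*, a regulator of the sodium pump, lay at -1.45 and -1.92 with EMPTY and at -2.85 and -2.73 with miR-195, a difference of -1.11. *Slc5a5*, the sodium iodide symporter, differed by -0.78, and *Pdzk1*, a scaffold of membrane transporters, by -1.02. *Pdzk1* had EMPTY arrays far apart, at -2.89 and -3.81, and without replicate 1 its difference was -0.56. Of genes of cilia, *Ttc30a1*, a subunit of intraflagellar transport, lay at -2.45 and -2.48 with EMPTY and at -3.41 and -4.58 with miR-195, and without miR-195 replicate 2 its difference of -1.53 was -0.94. *Armc4*, needed for dynein arm docking, lay at -5.00 and -4.91 against -5.99 and -6.18, but turned to a difference of 0.10 with the normexp correction. *Dnahc2* (*Dnah2* in RefSeq), an axonemal dynein heavy chain, differed by -0.98.

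Of the cytoskeleton genes, *Clip4*, a microtubule-associated protein, had 2 selected probes that share a run of 55 bases and are therefore not separate measurements. One lay at -4.24 and -4.41 with EMPTY and at -5.46 and -5.57 with miR-195, the other at -3.72 and -3.95 against -4.68 and -4.97. *Marcks*, an actin-binding substrate of protein kinase C, lay at 2.52 and 2.35 against 1.74 and 1.57, and *Actr3b*, an actin-related protein, at 2.09 and 1.74 against 1.23 and 0.98. Both moved by similar amounts, -0.78 and -0.81. *Cdc42bpa*, a kinase of actomyosin regulation, *Scin*, an actin-severing protein, and *Farp1*, a guanine nucleotide exchange factor, differed by -1.04, -0.84 and -0.89. *Cdc42bpa* lay at -2.68 and -2.64 against -3.27 and -4.13, and without miR-195 replicate 2 its difference was -0.61.

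In metabolism, *Cox8b*, a muscle and brown fat form of a cytochrome c oxidase subunit, lay at -1.23 and -1.72 with EMPTY and at -2.76 and -2.80 with miR-195, a difference of -1.30. *Scd1*, the desaturase that makes monounsaturated fatty acids, lay at -3.87 and -3.65 against -4.84 and -4.41. *Scd1* was selected alone of the adipocyte list, where 4 of 14 probes were lower on both arrays and 2 higher, beside 15.9% and 20.2% of all probes and 0.395% selected. *Ccdc109b* (*Mcub* in RefSeq), a subunit of the mitochondrial calcium uniporter, differed by -0.76, and *Fut4*, a fucosyltransferase, by -0.68. Among receptors, *Pth1r*, the receptor of parathyroid hormone, lay at -1.93 and -1.43 against -2.68 and -3.39, a difference of -1.36. *Nrg4*, a ligand of ErbB receptors, differed by -0.65, and by 0.08 with the normexp correction. Of transcriptional regulators, *Cited4*, a coactivator-binding protein, lay at 2.33 and 1.97 against 1.44 and 1.37.

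The other selected genes were named after their values were seen. *Gm2837*, a predicted gene of unknown function, had the widest spread between EMPTY arrays, at -2.51 and -4.30, against -4.94 and -5.58 with miR-195, and without EMPTY replicate 1 its difference of -1.86 was -0.96. *Diras2*, a small GTPase, lay at -0.02 and -0.14 against -0.66 and -0.96. *Crmp1*, a collapsin response mediator of axon growth, *Myom3*, a protein of the sarcomere, *Creb3l4*, a transcription factor anchored in the endoplasmic reticulum, and *Cpt1c*, a neuronal carnitine palmitoyltransferase, differed by -0.91, -0.64, -0.71 and -0.67, and *Cpt1c* by 0.12 with the normexp correction. *Fam109b* (*Pheta2* in RefSeq), an endosomal protein, had 2 selected probes at -0.64 and -0.56. The zinc finger genes *Zmynd15*, *Zbtb42* and *Zfp709* differed by -1.14, -0.66 and -0.82, the sorting receptor *Sorcs2* by -0.69 and the mitochondrial protein gene *Ccdc90b* by -0.72. With the normexp correction *Zbtb42* was at 0.02. The remaining genes, *1600029D21Rik* (*Plet1* in RefSeq), *Gm3469*, *1700113H08Rik*, *9430076C15Rik* and *0610040J01Rik*, lay between -0.83 and -0.64, and 2 of them, *9430076C15Rik* and *0610040J01Rik*, turned with the normexp correction.

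**Figure D4:**
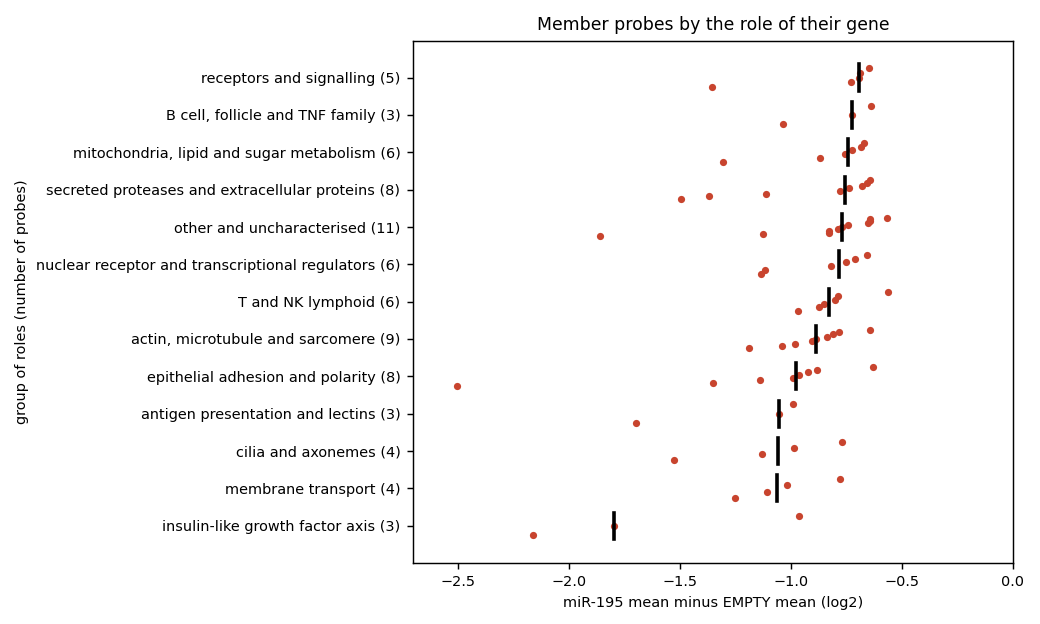
Each point is 1 of the 76 selected probes, placed by its miR-195 mean minus EMPTY mean (log2, x axis) in a group of roles that was drawn up after the values were seen (y axis, number of probes in brackets); black bars are group medians. The medians lie between -1.80 for the 3 probes of the insulin-like growth factor axis and -0.69 for receptors and signalling, and single probes of most groups overlap.

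At the edge of the rule, the last probes inside it were those of *Pdzk1*, *Rd3* and *Loxl2*, with gaps of 0.51, 0.50 and 0.50. The first outside were *Ttc12*, *Prss2* and *H2-M2*, with gaps of 0.497, 0.495 and 0.488 and differences of -0.93, -0.75 and -0.90. *Rd3* is a retinal protein, *Ttc12* a ciliary protein, *Prss2* a trypsin and *H2-M2* a non-classical MHC class I gene. No break in the values separated the 2 sides.

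For 19 of the 71 genes the array held 25 further probes, on the same arrays and the same contrast. Of these, 12 probes of 10 genes were well above background on all 4 arrays. The miR-195 mean was lower for all 12, with differences between -0.94 and -0.21 and a median of -0.50. Both miR-195 arrays lay below both EMPTY arrays for 11 of the 12, against 15.9% of all probes that could be chosen. The exception was a *Loxl2* probe, at -2.92 and -3.43 with EMPTY and at -3.41 and -3.62 with miR-195. The nearest to the rule was *Farp1*, at -1.04 and -1.55 against -2.27 and -1.99. They measured the same RNA samples and are not independent of the selection.

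**Figure D5:**
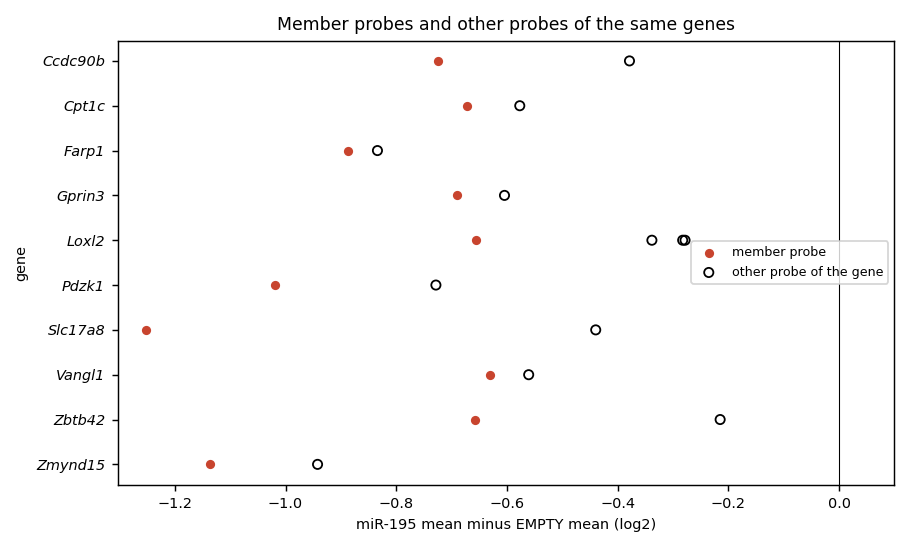
For the 10 genes with another probe well above background on all 4 arrays, the miR-195 mean minus the EMPTY mean (log2, x axis) is shown for the selected probe (red) and the other probes (open circles). All 12 open circles lie left of 0 and right of the red point of their gene.

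The selected genes were set beside the mouse miR-195 targets that the study had predicted from sequence. Of the 71 genes, 2 were predicted targets (2.82%), against 612 of 14808 genes that could be chosen (4.13%) and 2 of the 140 genes higher by the same rule (1.43%). Over probes, 2 of 76 is 2.63%, with an exact 95% binomial interval of 0.32 to 9.18 that covers counting only. The 2 genes were *Igf2* and *Gprin3*, a regulator of neurite growth. *Gprin3* lay at -0.74 and -0.87 with EMPTY and at -1.59 and -1.39 with miR-195, and its second probe differed by -0.60. Of the list of cell cycle genes known as targets of the miR-15/16 family, 0 were selected, and 2 of its 27 probes were lower on both arrays and 3 higher, beside 0.395%, 15.9% and 20.2% of all probes. The complement of the seed, TGCTGCT, was found in 0 of the 76 selected probe sequences, which are 60 bases long, and in 167 of 19239 probes (0.868%). The probes cover only 60 bases of each transcript and target sites outside them were not analysed here.

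Sequences upstream of the start sites were examined for what the selected genes share, over 250 bases before each RefSeq start. RefSeq windows were found for 49 of the selected genes, 67 windows in all, and windows of a gene with several starts can overlap. They held a median of 5 CpG dinucleotides, against 14 in the windows of the genes that could be chosen and 6 in all 32851 windows, and 46.3% had fewer than 5, against 18.0% and 44.4%. The windows of the genes higher by the same rule held a median of 7. Letters searched on both strands were the E box CAGGTG, found in 28.4% of the windows of selected genes, 15.9% of those of genes that could be chosen and 17.2% of all windows. CCAAT was found in 41.8%, 34.9% and 33.8%, CAGCTG in 13.4%, 12.1% and 13.0%, TGTGGT, known from RUNX factors, in 20.9%, 11.4% and 14.0%, AGATAA, a motif bound by GATA factors, in 10.4%, 6.29% and 9.99%, and TATAAA in 7.46%, 7.29% and 12.4%. The palindromic EBF1 motif was found in 0 of the 67 windows and in 0.779% of all. The 3 windows with 2 matches to CAGGTG are printed, because the share of this motif stood farthest from both backgrounds among those searched, with matches to the 6 spelled motifs in capitals on either strand. They lie at chr9:44980432-44980681 (*Cd3g*, minus strand), chr6:41458680-41458929 (*Prss1*, plus strand) and chr10:89621250-89621499 (*Slc17a8*, minus strand) of GRCm38.p6.
Cd3g: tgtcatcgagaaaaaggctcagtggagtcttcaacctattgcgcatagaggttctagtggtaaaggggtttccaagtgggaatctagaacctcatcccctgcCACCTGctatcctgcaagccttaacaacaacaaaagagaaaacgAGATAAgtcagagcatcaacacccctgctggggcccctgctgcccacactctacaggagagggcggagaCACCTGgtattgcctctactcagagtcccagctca
Prss1: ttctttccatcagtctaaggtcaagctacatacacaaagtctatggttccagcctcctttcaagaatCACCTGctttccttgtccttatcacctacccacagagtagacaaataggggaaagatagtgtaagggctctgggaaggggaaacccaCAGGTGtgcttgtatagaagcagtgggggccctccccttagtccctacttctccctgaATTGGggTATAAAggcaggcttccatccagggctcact
Slc17a8: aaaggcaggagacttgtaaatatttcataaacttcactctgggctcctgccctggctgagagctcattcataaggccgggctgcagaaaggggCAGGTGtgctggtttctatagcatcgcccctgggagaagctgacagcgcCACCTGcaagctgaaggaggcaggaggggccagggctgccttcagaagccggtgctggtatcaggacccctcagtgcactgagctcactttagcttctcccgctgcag

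In the *Cd3g* window 1 of the E box matches lies close to the start and 1 further upstream, both on the opposite strand as CACCTG, with AGATAA between them. The *Prss1* window also holds TATAAA shortly before the start. A match to these letters is a description of the window, and binding was not measured here.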

How the data were processed

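Gene expression of 4 samples was measured on single-colour Agilent 4x44K mouse arrays. The authors deposited log2 values normalised to the 75th percentile of each array, which chose the probes and are the values printed. The deposited scanner intensity files, made with Feature Extraction, gave the flags for signal well above background, the outlier flags and the processed signals. The submitters' processing notes name version 11.5.1.1 of that software, while the headers of the scanner output name an earlier one. The 75th percentile of the processed signal was 908 to 1137, no probe was saturated, and a 2-array group limits the precision. Spots of one probe were averaged, and probes of one gene were kept apart.

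All probes well above background on all 4 arrays were fitted with limma 3.58.1 in R 4.3.3 (lmFit and eBayes, Benjamini-Hochberg adjustment), tested on simulated data first. The members and gene lists were chosen with earlier results of these data known. Named were the 15 genes with the largest gap, those in a gene list or predicted as targets, and the 3 probes on either side of the threshold, and others by their role after their values were seen. Lists without a selected gene and not given in the report are counted in the closing section. RefSeq tables (GRCm38.p6) gave positions, upstream windows and miRNAs, and 66 of 71 genes matched by accession. Of the selected genes, 1 is counted but not reported by name here. Alternatives were other normalisations, gaps and filters, and leaving out each array.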

Additional observations from a re-analysis of the deposited data

How the results depend on the processing

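The number of selected probes followed the setting of the rule. It was 76 probes of 71 genes as reported, and 17 probes of 17 genes after normexp background correction. A gap of 0.25 took 313 probes of 291 genes, with a median difference of -0.61, a gap of 0.75 took 19 of 18 genes (-1.14), and a gap of 1 took 7 of 7 genes (-1.25). Without the filter on dim probes it was 311 probes of 302 genes (-1.03), and with a processed signal above 100 on all 4 arrays it was 24 of 24 genes. Leaving out 1 array gave 198 to 407 probes of 187 to 382 genes, 198 without EMPTY replicate 1, 389 without EMPTY replicate 2, 407 without miR-195 replicate 1 and 265 without miR-195 replicate 2, because each leaves the rule fewer arrays to satisfy. Processed signals scaled anew gave 68 probes, of which 50 were among the 76, quantile normalisation 96 (58 shared), median scaling 111 (64 shared) and normexp 17 (15 shared). Of 120 comparisons of 30 named probes with another normalisation, 79 stayed within the replicate spread, 39 moved beyond it and 2 turned, both with normexp, Armc4 to 0.10 and Igfals to 0.23. Of all 76 probes, 9 turned with normexp. Leaving out 1 array cannot move a mean of 2 beyond their spread, and the differences that it moved by over 1.5 times are given in the report. Limma called 0 of 22646 probes at an adjusted p under 0.05 in either direction. The methods' t-test, run on differences of same-numbered arrays, also called 0, with 356 lower and 665 higher at an unadjusted p under 0.05. It had only 2 differences per probe, so its 0 calls decide nothing. Leaving out 1 array gave 0 to 1184 limma calls, with 1184 without miR-195 replicate 1, 3 without EMPTY replicate 2 and 1 without miR-195 replicate 2, where the lone array was assumed to vary like the other group. With the replicate number as a block, the replicate block fit called 611 probes, 144 lower and 467 higher. The deviations of same-numbered arrays correlated at -0.18, and the crossed replicate block called 0 probes. The labels do not say whether same-numbered arrays share a culture, and the correlation does not settle it. The cause of these changes in limma calls was not tested. Of the lists not given in the report, none held a selected gene (0.395% of all probes were selected), and probes lower and higher on both arrays, beside 15.9% and 20.2% of all probes, numbered 6 and 8 of 28 for neutrophil and monocyte genes, 2 and 2 of 9 for mast cell and basophil genes, 4 and 2 of 12 for erythroid genes, 1 and 3 of 12 for megakaryocyte genes, 1 and 9 of 21 for stem and progenitor genes, 3 and 9 of 28 for interferon induced genes, 1 and 4 of 23 for immediate early genes, 5 and 7 of 32 for proliferation genes, 11 and 5 of 27 for cholesterol and fatty acid synthesis genes, 10 and 3 of 38 for glycolysis and hypoxia genes, 7 and 3 of 23 for stress genes, and 9 and 6 of 31 for lysosome genes.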
